A study of Mus musculus with 18 samples.

Results

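The comparison described here is the response of mouse myoblasts to human DUX4 minus their response to luciferase, a control protein switched on in the same way. It uses 12 of the 18 libraries of the series, 3 from each of 4 groups, chosen by the transgene and treatment in their labels. The human DUX4 groups are a clonal C2C12 line carrying a doxycycline-inducible, codon-altered human DUX4 transgene, given doxycycline at 2 µg/ml (induced) or none (uninduced), and collected at 36 h. The luciferase groups are a clonal C2C12 line with an inducible firefly luciferase transgene, induced with the same dose for the same time or left uninduced. The 6 libraries of a mouse Dux line are not used. C2C12 is an established mouse myoblast line. All cultures grew in serum with puromycin, which selects for cells that carry the transgene, and each library came from a separate culture. Each line is 1 clone, so a property of the clone and an effect of its transgene cannot be told apart.

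DUX4 is a double-homeobox transcription factor of the early human embryo, and its expression in skeletal muscle underlies facioscapulohumeral muscular dystrophy, in which it is toxic to muscle cells. In human muscle cells it binds homeobox motifs, recruits histone acetyltransferases and activates genes that muscle does not normally use. Doxycycline also acts on mammalian cells by itself, because it inhibits translation in mitochondria, and a line that makes a control protein under the drug serves as a control. In its response, the parts of the drug, of luciferase and of the clone cannot be told apart.

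The question was which genes changed with human DUX4 beyond the change seen with doxycycline and luciferase. For each gene, the log2 change with over without doxycycline was taken in each line, and the luciferase value was subtracted from the DUX4 value. A positive difference means that the gene rose more, or fell less, in the DUX4 line. Levels are CPM, read counts scaled to a common library size. They are not divided by gene length and so compare groups, not genes. Because RNA was taken from whole cultures, fewer cells expressing a gene and less RNA of it per cell cannot be told apart.

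The 12 libraries held 12871469 to 17179642 counts, and 12948 of 24028 genes had enough counts to test. The edgeR quasi-likelihood test called the difference for 8540 genes (66.0%) at an adjusted p under 0.05. Of these, 4421 (34.1%) were higher and 4119 (31.8%) lower. The spread between cultures was small, with a biological coefficient of variation of 2.43%, so small differences passed too. The median absolute difference of the called genes was 0.617 on the log2 scale. With a size of at least 1 required as well, a threshold chosen after these counts were seen, 1248 genes (9.64%) were higher and 1161 (8.97%) lower. At a size of at least 2, called strong here, 446 (3.44%) were higher and 362 (2.80%) lower. The median difference over all genes tested was 0.01.

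The luciferase line was not silent under doxycycline. The human DUX4 response was called for 9880 genes (76.3%), 4897 higher (37.8%) and 4983 lower (38.5%), against 6214 genes (48.0%), 2765 higher (21.4%) and 3449 lower (26.6%), for the luciferase response, by the same test. Most luciferase changes were small. A size of at least 1 was reached by 1404 rises (10.8%) and 1434 falls (11.1%) in the DUX4 line, against 178 rises (1.37%) and 384 falls (2.97%) in the luciferase line. Genes called with a size of at least 1 in both lines numbered 354, which is 12.5% of the 2838 such genes of the DUX4 line and 63.0% of the 562 of the luciferase line. Of these 354 genes, 261 fell in both lines, 50 rose in both, 24 rose in the DUX4 line and fell in the luciferase line, and 19 did the reverse. The plot of both responses shows where the main gene groups lie.

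**Figure D1:**
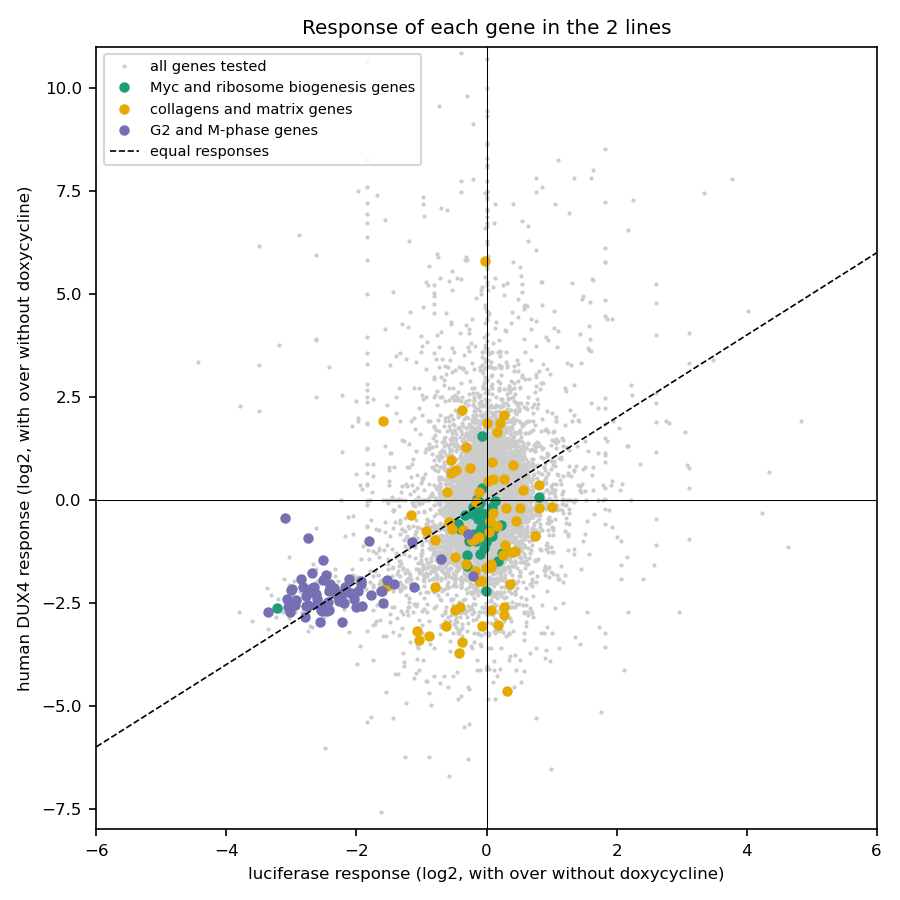
Each point is 1 of the genes tested, with its log2 change with over without doxycycline in the luciferase line (horizontal) and in the human DUX4 line (vertical), from 3 libraries per group. The G2 and M-phase genes (purple) lie near the dashed line of equal responses, with medians of −2.25 in the DUX4 line and −2.44 in the luciferase line, while 39 of 48 Myc and ribosome biogenesis genes (green, medians −0.68 and −0.08) and 46 of 72 collagens and matrix genes (yellow, medians −0.78 and −0.04) were called below that line, and 3 and 21 of them above it.

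The 2 lines also differed before induction. Summed over 8 tested myoblast markers, the DUX4 line held 1165 to 1202 CPM induced and 1123 to 1168 CPM uninduced, against 2918 to 3046 CPM in induced and 3887 to 3929 CPM in uninduced luciferase cultures. Of these 8 markers the difference was higher for 2 and lower for 5 (87.5% called, against 66.0% of all genes tested), with a median of −0.79. All 4 groups expressed desmin (Des), acetylcholine receptor alpha (Chrna1) and M-cadherin (Cdh15), which mark these cells, and the label as myoblasts holds in that sense only. Of the 8 markers, 6 fell and 2 rose in the DUX4 line, and 8 fell in the luciferase line. Pax7, not among those tested, had no count in induced DUX4 cultures. Myod1 averaged 3.69 CPM in induced and 26.7 CPM in uninduced DUX4 cultures, against 150 and 198 CPM in luciferase cultures. Myogenin (Myog), which drives differentiation of myoblasts, was at 0.428 ± 0.0684 CPM in induced DUX4 cultures and 1.26 ± 0.324 CPM in uninduced DUX4 cultures, against 118 ± 5.64 CPM in induced and 197 ± 5.9 CPM in uninduced luciferase cultures (SD, n = 3 each). Of other cell types, the adipocyte marker Adipoq, the osteoblast marker Ibsp, the epithelial marker Epcam and the neuronal marker Snap25 had no count in any of the 12 libraries. Other markers of these types were present. The adipocyte regulators Pparg and Cebpa summed to 31.7 to 34.0 CPM in induced and 14.6 to 17.8 CPM in uninduced DUX4 cultures, against 37.1 to 39.7 CPM in induced and 23.8 to 27.4 CPM in uninduced luciferase cultures. The osteoblast markers Runx2 and Bglap summed to 34.5 to 36.7 CPM in induced and 87.2 to 95.6 CPM in uninduced DUX4 cultures, against 50.2 to 53.1 CPM in induced and 50.1 to 51.7 CPM in uninduced luciferase cultures. The epithelial keratin gene Krt14 was at 0.769 to 1.06 CPM in induced and 15.4 to 16.5 CPM in uninduced DUX4 cultures, against 7.83 to 12.02 CPM in induced and 9.85 to 13.0 CPM in uninduced luciferase cultures, a difference of −4.00 (SE 0.232). The neuronal splicing gene Rbfox3 was at 0.875 to 1.40 CPM in induced DUX4 cultures and had 1 count over the other 3 groups. The endothelial marker Cdh5 was at no more than 0.0699 CPM in any DUX4-line library, against 22.5 to 24.8 CPM in induced and 23.9 to 27.6 CPM in uninduced luciferase cultures. The macrophage receptor gene Csf1r stood at 11.4 to 13.4 CPM in induced and 1.62 to 2.67 CPM in uninduced DUX4 cultures, against at most 0.259 CPM and 0.351 CPM in induced and uninduced luciferase cultures. What these markers contribute to the differences was not tested.

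Of 5 genes taken as markers of the comparison because of their difference, 3 moved up and 2 moved down, so their values describe it and test nothing. Nrap, which encodes a scaffold protein of growing myofibrils (chromosome 19, 56320037 to 56390062), was at 58, 61.8 and 61 CPM in induced and 0.318, 0.521 and 0.386 CPM in uninduced DUX4 cultures. In the luciferase line it was at 11.1, 12.9 and 10.7 CPM induced and 23.7, 21.9 and 22.4 CPM uninduced. The gene was thus highest in induced and lowest in uninduced DUX4 cultures, with both luciferase groups between them and no overlap of groups, and the difference was 8.15 (SE 0.167). Pdlim3, which encodes a protein that binds alpha-actinin at the Z-disc (chromosome 8, 45885487 to 45919635), had 577, 563 and 569 CPM in induced and 56.6, 56.4 and 56.2 CPM in uninduced DUX4 cultures. It had 8.58, 7.96 and 8.37 CPM in induced and 18, 17 and 17.8 CPM in uninduced luciferase cultures. Every DUX4-line library lay above every luciferase library, and the 2 lines moved in opposite directions, with changes of 3.34 (SE 0.0329) and −1.08 (SE 0.0768) and a difference of 4.42 (SE 0.0841).

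Chrnd encodes the delta subunit of the muscle acetylcholine receptor (chromosome 1, 87190597 to 87200070). It was at 168, 166 and 173 CPM in induced DUX4 cultures, against 21.3, 23.8 and 21.9 CPM in uninduced ones. In luciferase cultures it was at 26.1, 25.5 and 25.8 CPM with and 40.1, 43.1 and 38.4 CPM without doxycycline. Induced DUX4 cultures stood above all others, and the difference was 3.57 (SE 0.0745). Gja1, the gap junction gene of connexin 43 (chromosome 10, 56377300 to 56390419), moved the other way. Its values were 64.4, 67.9 and 62.2 CPM in induced and 257, 252 and 261 CPM in uninduced DUX4 cultures, and 578, 622 and 591 CPM in induced and 259, 267 and 269 CPM in uninduced luciferase cultures. The uninduced groups of both lines lay close together, and with induction the gene fell by 1.99 in the DUX4 line and rose by 1.17 in the luciferase line, a difference of −3.16 (SE 0.0486). Osteopontin (Spp1), a secreted matrix phosphoprotein gene (chromosome 5, 104435111 to 104441053), had 44.5, 48 and 42.5 CPM in induced and 1141, 1138 and 1113 CPM in uninduced DUX4 cultures. In luciferase cultures it had 1346, 1243 and 1274 CPM induced and 1037, 1027 and 1033 CPM uninduced. Induced DUX4 cultures stood far below the other 3 groups, and the difference was −4.97 (SE 0.0489).

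**Figure D2:**
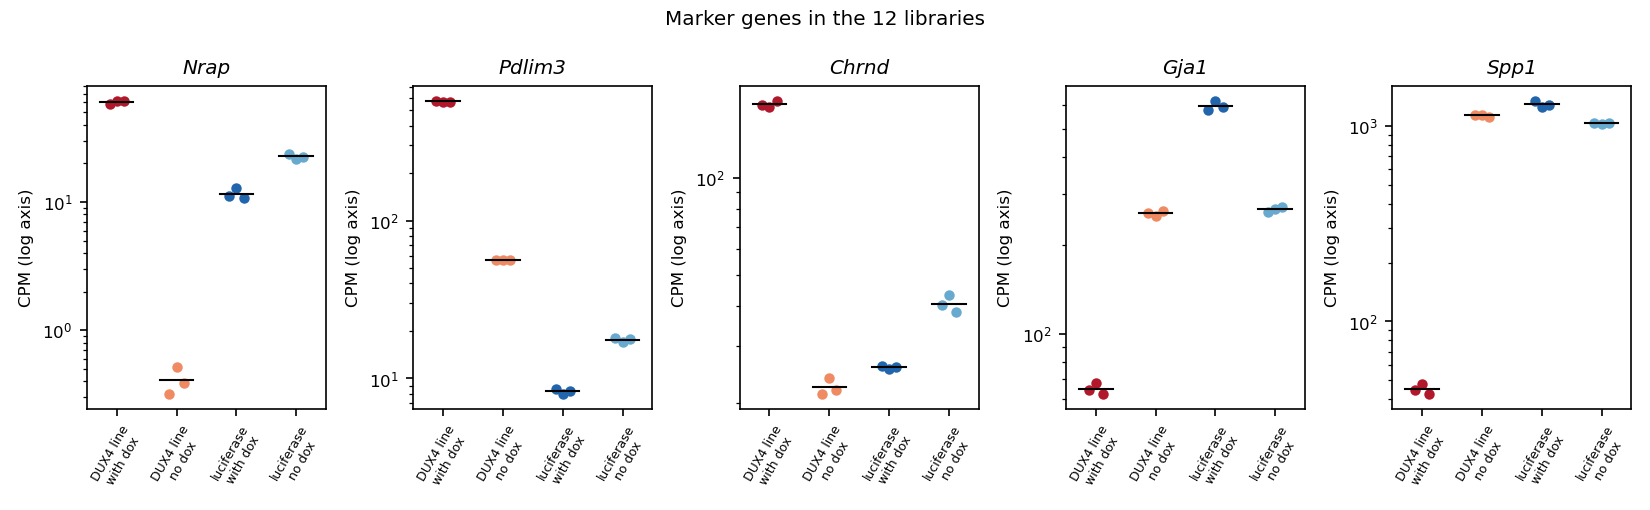
CPM on a log axis of Nrap, Pdlim3, Chrnd, Gja1 and Spp1 in each of the 12 libraries (points) with the group mean (bar), for induced and uninduced human DUX4 cultures and then induced and uninduced luciferase cultures. In the luciferase line, Gja1 rose by 1.17 and Pdlim3 fell by 1.08 on the log2 scale, each against its direction in the DUX4 line.

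Among genes expressed in both lines, with a group mean of at least 1 CPM in each, the 10 highest differences included those of Nrap, Actn2, Sntb1 and P2rx3. P2rx3, an ATP-gated ion channel best known from sensory neurons (chromosome 2, 84996549 to 85037108), was at 443, 436 and 440.3 CPM in induced and 1.14, 1.56 and 1.62 CPM in uninduced DUX4 cultures. Luciferase cultures had 4.04, 2.85 and 3.89 CPM induced and 1.88, 1.8 and 1.33 CPM uninduced. The gene rose in both lines, and the difference was 7.16 (SE 0.295, edgeR adjusted p = 2.89e-24). Sntb1, which encodes a syntrophin that binds dystrophin, was at 62.4, 61.9 and 62.9 CPM in induced and 1.27, 1.76 and 1.78 CPM in uninduced DUX4 cultures, and at 13.5, 15.1 and 14.5 CPM in induced and 27.9, 28 and 26.3 CPM in uninduced luciferase cultures. It rose in the DUX4 line and fell in the luciferase line, with a difference of 6.22 (SE 0.126, edgeR adjusted p = 3.73e-35). Filip1, a filamin-binding protein gene, differed by 7.66 (SE 0.265), the glutathione-degrading gamma-glutamyltransferase gene Ggt5 by 6.60 (SE 0.466), the predicted gene Gm13057 by 5.90 (SE 0.294) and the actin-binding LIM gene Ablim3 by 5.84 (SE 0.419).

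Necab1, a neuronal calcium-binding protein gene, Slc16a10, an aromatic amino acid transporter gene, and Actn2, the gene of sarcomeric alpha-actinin, had no count in uninduced DUX4 cultures. Against a floor of 3 counts per group, induced DUX4 cultures were at least 67.4-fold higher for Necab1, at least 26.2-fold for Slc16a10 and at least 21.3-fold for Actn2. None of the 3 was called in the luciferase response, where Necab1 averaged 8.25 ± 0.959 CPM induced and 9.5 ± 0.46 CPM uninduced, above its 4.6 ± 0.629 CPM in induced DUX4 cultures (SD, n = 3 each). For these genes, induction in the DUX4 line ended below levels that the luciferase line held throughout, except for Actn2, where the ranges of induced DUX4 and both luciferase groups overlapped.

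Trim66, a gene of a chromatin reader of the TRIM family, had the lowest difference by the same rule, at −6.90 (SE 0.41), and few counts. It was at 0.21, 0.0664 and 0.202 CPM in induced and 6.16, 5.79 and 5.64 CPM in uninduced DUX4 cultures, and at 3.67, 2.39 and 3.59 CPM in induced and 1.11, 0.681 and 1.05 CPM in uninduced luciferase cultures. The 2 lines changed in opposite directions. Hmga2, a chromatin architectural gene of proliferating and embryonic cells (chromosome 10, 120361268 to 120476469), was at 2.66, 3.19 and 1.75 CPM in induced and 28.4, 27.7 and 31 CPM in uninduced DUX4 cultures. It was at 55.7, 53.6 and 51.8 CPM in induced and 19.6, 19.9 and 19.8 CPM in uninduced luciferase cultures. It fell in the DUX4 line by 3.51 and rose in the luciferase line by 1.44, with no overlap of groups, and the difference was −4.95 (SE 0.127, edgeR adjusted p = 1.42e-31).

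Eps8, a substrate of growth factor receptors that caps actin, behaved likewise, with a difference of −4.95 (SE 0.097). Pdk4, the kinase gene that restrains pyruvate dehydrogenase, had 1.82, 2.19 and 1.28 CPM in induced and 51.1, 51.1 and 50.7 CPM in uninduced DUX4 cultures, and 44, 50.8 and 48.4 CPM in induced and 47.5, 48.1 and 45 CPM in uninduced luciferase cultures. The 3 groups other than induced DUX4 overlapped or nearly so, and the difference of −4.87 (SE 0.126, edgeR adjusted p = 1.81e-31) came with a luciferase change of 0.02 (edgeR adjusted p = 0.741). Mgp, a matrix inhibitor of calcification, differed by −4.72 (SE 0.0752), the zinc finger gene Egr3 by −4.89 (SE 0.19), the chemerin receptor gene Cmklr1 by −5.17 (SE 0.351) and the cytokine receptor gene Csf2rb by −4.81 (SE 0.538). The potassium channel gene Kcnk2 had 2 counts in induced DUX4 cultures and 102 in uninduced ones, a ratio of uninduced over induced of 51.2 with a 95% exact interval of 13.8 to 428, and was not called in the luciferase response.

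Cell-cycle genes fell in both lines. For comparison with each list, 38.5% of all genes tested fell and 37.8% rose in the DUX4 line. In the luciferase line 26.6% fell and 21.4% rose. The G2 and M-phase list holds 67 genes of the mitotic programme, all tested, and all 67 fell in both lines. By a size of at least 1, 63 fell in the DUX4 line and 64 in the luciferase line, against 11.1% and 2.97% of all genes tested. The summed level was 2195 ± 74.7 CPM in induced and 8753 ± 123 CPM in uninduced DUX4 cultures, against 594 ± 35.3 CPM in induced and 2275 ± 74.3 CPM in uninduced luciferase cultures (SD, n = 3 each). Induced DUX4 cultures thus reached the level of uninduced luciferase cultures, with overlapping ranges. The difference was higher for 22 genes, lower for 19 and not called for 26, which is 61.2% called against 66.0% of all genes tested, and its median was 0.08.

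Kif23, a kinesin of cytokinesis (chromosome 9, 61917277 to 61946810), had 39.8, 44.5 and 39.8 CPM in induced and 117, 113 and 114 CPM in uninduced DUX4 cultures. Luciferase cultures had 4.42, 5.04 and 5.56 CPM induced and 28.5, 27.3 and 30.1 CPM uninduced. It fell in both lines, by 1.47 in the DUX4 line and 2.51 in the luciferase line, and the difference was 1.04 (SE 0.108). Top2a, the topoisomerase that untangles replicated chromosomes (chromosome 11, 98992947 to 99024199), was at 329, 345 and 344 CPM in induced and 654, 644 and 644 CPM in uninduced DUX4 cultures, and at 15.6, 15.7 and 17.3 CPM in induced and 109.8, 106 and 112 CPM in uninduced luciferase cultures. Bub1, a kinase of the spindle checkpoint (chromosome 2, 127800197 to 127831859), was at 71.9, 70.4 and 65.1 CPM in induced and 95.8, 94.4 and 90.5 CPM in uninduced DUX4 cultures, and at 2.8, 2.91 and 3.05 CPM in induced and 25.6, 25.1 and 24.7 CPM in uninduced luciferase cultures. Both genes fell less in the DUX4 line than the list as a whole, which gave positive differences of 1.82 (SE 0.0597, edgeR adjusted p = 1.08e-27) for Top2a and 2.66 (SE 0.112, edgeR adjusted p = 5.74e-24) for Bub1. At the other end, Cdc25b, a phosphatase that activates CDK1, changed by −1.84 in the DUX4 line and −0.21 in the luciferase line, a difference of −1.63 (SE 0.0637).

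Most S-phase and DNA replication genes fell in both lines. Of 59 genes, 56 fell in the DUX4 line and 54 in the luciferase line, with medians of −1.61 and −0.96, and the difference was higher for 9 and lower for 34 (72.9% called, against 66.0% of all genes tested), with a median of −0.36. Their summed level was 2392 ± 13.7 CPM in induced and 4890.0 ± 23.4 CPM in uninduced DUX4 cultures, against 757 ± 7.01 CPM in induced and 1280.0 ± 16.8 CPM in uninduced luciferase cultures (SD, n = 3 each). Mcm7, a subunit of the replicative helicase (chromosome 5, 138164583 to 138172111), had 38.7, 38 and 37.5 CPM in induced and 147, 147 and 139 CPM in uninduced DUX4 cultures, and 26.2, 25.5 and 27.5 CPM in induced and 34, 29.6 and 31.3 CPM in uninduced luciferase cultures. Uninduced DUX4 cultures stood above the other 3 groups, and the difference was −1.67 (SE 0.0753, edgeR adjusted p = 7.67e-23). The dUTPase gene Dut and the transcription factor gene E2f2 differed by −1.77 (SE 0.124) and −1.77 (SE 0.175). Pcna, the sliding clamp of DNA polymerases, went against its list. It was at 625, 599 and 607 CPM in induced and 345, 341 and 348 CPM in uninduced DUX4 cultures, and at 49.4, 50.1 and 48.2 CPM in induced and 74.5, 76.4 and 81.5 CPM in uninduced luciferase cultures. Pcna rose in the DUX4 line and fell in the luciferase line, a difference of 1.48 (SE 0.051, edgeR adjusted p = 5.73e-27).

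**Figure D3:**
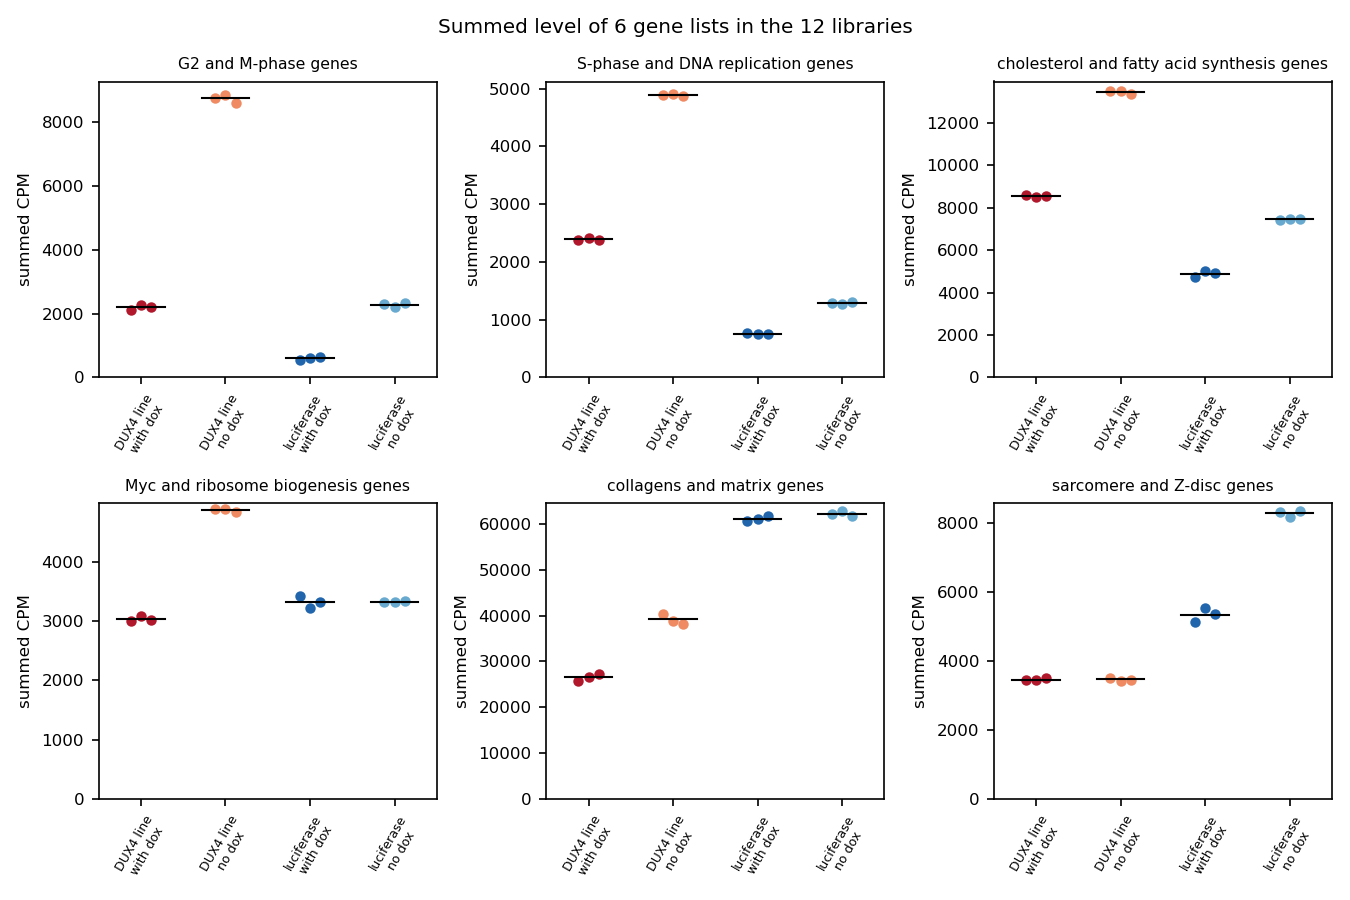
Summed CPM of the tested members of 6 gene lists in each library (points) with the group mean (bar), for induced and uninduced human DUX4 cultures and then induced and uninduced luciferase cultures, with axes from 0. G2 and M-phase genes and cholesterol and fatty acid synthesis genes were lower with doxycycline in both lines, while the sum of Myc and ribosome biogenesis genes was 3036 ± 38.2 CPM in induced and 4879 ± 28 CPM in uninduced DUX4 cultures, against 3324 ± 104 CPM and 3328 ± 11.1 CPM in induced and uninduced luciferase cultures.

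Part of the promoters of these 2 lists carry known cell-cycle elements, which are shown because most genes of both lists fell in both lines. Whether these elements relate to the falls was not tested. Mitotic genes are repressed in resting cells through the cell-cycle homology region (CHR), TTTGAA, and replication genes through E2F sites, searched here as TTTNGCGC. Both strings were searched on both strands, from 250 bases before to 50 bases after each start, in mouse RefSeq promoters (GRCm38.p6), and neither contains the other. The CHR string was present in 38 of 57 G2 and M-phase genes with a promoter in the table (66.7%), in 8 of 46 S-phase genes (17.4%), in 14.3% of 10305 genes tested and in 17.9% of all promoters. The E2F string was present in 6 of 57 G2 and M-phase genes (10.5%), in 14 of 46 S-phase genes (30.4%), in 2.92% of genes tested and in 1.38% of all promoters, and a gene with several promoters counts if any holds the string. In Top2a (chr11:99024140-99024439, minus strand) CHR strings begin at −179 and −23 from the start site, in Kif23 (chr9:61946750-61947049, minus strand) at 3, and the E2F string of Mcm7 (chr5:138171834-138172133, minus strand) begins at 17. Capitals mark these strings, read 5′ to 3′ along each gene.
Top2a: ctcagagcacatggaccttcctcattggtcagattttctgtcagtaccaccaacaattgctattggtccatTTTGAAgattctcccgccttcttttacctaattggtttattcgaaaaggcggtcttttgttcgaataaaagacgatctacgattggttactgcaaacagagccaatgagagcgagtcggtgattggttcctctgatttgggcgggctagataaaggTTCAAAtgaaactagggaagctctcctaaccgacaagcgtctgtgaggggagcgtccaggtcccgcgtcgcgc
Kif23: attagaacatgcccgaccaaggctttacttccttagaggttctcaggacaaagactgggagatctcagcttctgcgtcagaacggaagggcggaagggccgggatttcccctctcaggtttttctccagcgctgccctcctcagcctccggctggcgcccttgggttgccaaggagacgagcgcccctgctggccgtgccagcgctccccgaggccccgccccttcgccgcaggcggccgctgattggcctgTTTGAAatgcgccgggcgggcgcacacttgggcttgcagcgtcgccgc
Mcm7: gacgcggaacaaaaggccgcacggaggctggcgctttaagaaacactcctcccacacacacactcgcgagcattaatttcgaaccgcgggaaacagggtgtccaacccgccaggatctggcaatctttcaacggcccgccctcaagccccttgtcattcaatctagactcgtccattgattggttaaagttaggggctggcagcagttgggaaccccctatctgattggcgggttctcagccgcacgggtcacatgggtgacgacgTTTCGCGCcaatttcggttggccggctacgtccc
A match of letters describes the promoter and does not show that a factor binds there.

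Some genes called in both lines in the same direction had no called difference. Over all genes tested the difference was called for 66.0%, and no conclusion is drawn from the counts that follow. Among 4786 genes called in both lines with a group mean of at least 10 CPM, 996 moved the same way with no difference called, 2031 moved the same way with a difference called, and 1759 moved in opposite directions. Cdc6, which loads the replicative helicase, was at 3.08, 4.32 and 3.43 CPM in induced and 31.4, 31.8 and 32.1 CPM in uninduced DUX4 cultures, and at 0.249, 0.259 and 0.299 CPM in induced and 2.52, 3.1 and 2.95 CPM in uninduced luciferase cultures. It fell by 3.13 in the DUX4 line and by 3.36 in the luciferase line, and the difference of 0.23 (SE 0.356, edgeR adjusted p = 0.597) did not pass. The helicase gene Pif1 (0.39, SE 0.307, adjusted p = 0.267) and the ubiquitin ligase gene Neurl1b (0.41, SE 0.464, adjusted p = 0.453) also fell in both lines without a called difference. For the mitotic kinase gene Pbk the difference was 0.47 (SE 0.242, edgeR adjusted p = 0.0831), and it was 0.88 (adjusted p = 0.00683) without the second induced luciferase library. The DNA repair gene Neil3 (1.09, SE 0.333), the PCNA-binding factor gene 2810417H13Rik (0.65, SE 0.175) and the cohesin acetyltransferase gene Esco2 (1.00, SE 0.305) fell in both lines and further in the luciferase line. So did the mitotic kinase gene Aurkb (0.63, SE 0.201, adjusted p = 0.00569), whose difference did not pass without the first induced luciferase library (0.39, adjusted p = 0.105).

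Most lipid synthesis genes fell in both lines too. Of 39 cholesterol and fatty acid synthesis genes, 32 fell in the DUX4 line and 37 in the luciferase line, with medians of −0.77 and −0.75. The difference was higher for 20 and lower for 16 (92.3% called, against 66.0%), with a median of 0.13. Idi1, an isomerase of the mevalonate pathway (chromosome 13, 8885606 to 8892396), was at 272, 279.6 and 271 CPM in induced and 358, 364 and 358 CPM in uninduced DUX4 cultures. In luciferase cultures it was at 19.5, 21.5 and 23.7 CPM induced and 90.6, 89.4 and 89.97 CPM uninduced. It fell in both lines, by 0.39 and 2.06, a difference of 1.67 (SE 0.059, edgeR adjusted p = 1.49e-26). Acat2, which makes the first intermediate of that pathway, was at 293 ± 5.45 CPM in induced and 296 ± 3.16 CPM in uninduced DUX4 cultures, a change not called, while it fell by 1.25 in the luciferase line (difference 1.23, SE 0.0579). Malic enzyme (Me1), which supplies NADPH, rose in the DUX4 line (difference 1.65, SE 0.0434), and the desaturase gene Fads1 had the lowest difference of the list, −1.42 (SE 0.0503).

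Of 22 CDK inhibitors and retinoblastoma family genes, which hold cells in growth arrest, the difference was higher for 9 and lower for 10 (86.4% called, against 66.0% of all genes tested), with a median of −0.14. By at least 1, 7 were higher and 2 lower, against 9.64% and 8.97% of all genes tested. Cdkn1a, the p21 inhibitor of cyclin-dependent kinases (chromosome 17, 29090979 to 29100722), was at 884, 828 and 843 CPM in induced and 136, 129.9 and 136 CPM in uninduced DUX4 cultures. It was at 513, 475 and 481 CPM in induced and 482, 471 and 492 CPM in uninduced luciferase cultures. The luciferase groups overlapped and both stood above uninduced DUX4 cultures, and the difference was 2.65 (SE 0.0459, edgeR adjusted p = 2.13e-37). Rb1, the retinoblastoma protein gene (chromosome 14, 73192858 to 73325951), was at 468, 476 and 479.6 CPM in induced and 94.4, 89 and 81.4 CPM in uninduced DUX4 cultures, and at 88.1, 85.1 and 81.9 CPM in induced and 96, 97.6 and 96.4 CPM in uninduced luciferase cultures. Induced DUX4 cultures stood above the other 3 groups, and the difference was 2.61 (SE 0.0544, edgeR adjusted p = 9.48e-35). Cables1, which encodes a partner of cyclin-dependent kinases, had 21 counts in induced and 1 in uninduced DUX4 cultures, a ratio of 20.9 with a 95% exact interval of 3.36 to 865, and fell in the luciferase line (24 against 48 counts). Gadd45g, a growth arrest gene, fell in both lines and further in the DUX4 line (−2.47, SE 0.0786).

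Of 50 p53 regulators and target genes, the difference was higher for 22 and lower for 17 (78% called, against 66.0% of all genes tested), with a median of 0.07. The stress kinase gene Plk3 was at 212, 217 and 201 CPM in induced and 20.4, 20.5 and 18.6 CPM in uninduced DUX4 cultures, and at 22.8, 21.2 and 24.9 CPM in induced and 23.4, 22.1 and 22.8 CPM in uninduced luciferase cultures, a difference of 3.38 (SE 0.087, edgeR adjusted p = 1.61e-31). The p53 target gene Perp, with 2 counts in induced and 14 in uninduced DUX4 cultures, had a ratio of uninduced over induced of 7.03 with a 95% exact interval of 1.61 to 63.7, and rose in the luciferase line, where it averaged 13.3 ± 0.879 CPM induced and 10.2 ± 0.773 CPM uninduced (SD, n = 3 each). The mTOR inhibitor gene Ddit4 was lower (−1.62, SE 0.0845), as was the BH3-only gene Pmaip1 (−1.08, SE 0.145). Of 16 BCL2 family genes, which govern mitochondrial apoptosis, the difference was higher for 8 and lower for 3, and this 68.8% called was near the 66.0% of all genes tested. The proapoptotic gene Bid was at 14.8 ± 0.75 CPM in induced and 66 ± 0.718 CPM in uninduced DUX4 cultures, against 52.8 ± 1.67 and 51 ± 4.15 CPM in induced and uninduced luciferase cultures (−2.21, SE 0.0813). The proapoptotic gene Bcl2l11, which encodes Bim, rose in both lines and further in the DUX4 line (1.26, SE 0.0874), and the survival gene Bcl2l2 was higher (0.86, SE 0.0575).

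Most Myc and ribosome biogenesis genes fell in the DUX4 line beyond the control. Of 48 genes, the difference was higher for 3 and lower for 39 (87.5% called, against 66.0% of all genes tested), with a median of −0.64. In the single responses, 42 fell and 2 rose in the DUX4 line, and 15 fell and 5 rose in the luciferase line. Myc itself (chromosome 15, 61985341 to 61990361) was at 6.64, 7.17 and 7.4 CPM in induced and 33.1, 32.4 and 34.1 CPM in uninduced DUX4 cultures, and at 34.8, 31.5 and 32.5 CPM in induced and 33.7, 34 and 31.5 CPM in uninduced luciferase cultures. The 3 groups other than induced DUX4 overlapped, and the difference was −2.22 (SE 0.1001, edgeR adjusted p = 7.07e-23). Npm1, the nucleolar chaperone nucleophosmin (chromosome 11, 33152498 to 33164142), was at 270.4, 276 and 266 CPM in induced and 684, 659 and 661 CPM in uninduced DUX4 cultures, and at 579.5, 529 and 562 CPM in induced and 464, 476 and 474 CPM in uninduced luciferase cultures. It fell in the DUX4 line and rose in the luciferase line, a difference of −1.54 (SE 0.0429, edgeR adjusted p = 2.42e-30). The nucleolar GTPase gene Gnl3 did likewise (−1.65, SE 0.0724), and Mxd1, an antagonist of Myc, was the highest member at 1.63 (SE 0.117).

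Splicing and RNA surveillance genes shifted less. Of 36 nonsense-mediated decay and SR splicing factor genes, the difference was higher for 4 and lower for 22 (72.2% called, against 66.0% of all genes tested), with a median of −0.24, and for none was it as large as 1. The lowest were the splicing factor genes Srsf6 (−0.69, SE 0.0443), Srsf7 (−0.65, SE 0.0672) and Hnrnpa1 (−0.63, SE 0.0382), and the highest was the decay factor gene Smg8 (0.36, SE 0.0882).

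Collagens and matrix genes had a median difference of −0.77. Of 72 genes tested, the difference was higher for 21 and lower for 46 (93.1% called, against 66.0% of all genes tested). By at least 1, 12 were higher and 30 lower, against 9.64% and 8.97% of all genes tested. The summed level was 26506 ± 677 CPM in induced and 39161 ± 1101 CPM in uninduced DUX4 cultures, against 61184 ± 564 CPM in induced and 62190.0 ± 547 CPM in uninduced luciferase cultures (SD, n = 3 each). After Spp1, the lowest called member was Fbln1, the fibulin 1 gene, at 1.68, 1.46 and 1.61 CPM in induced and 19.6, 22.2 and 21.1 CPM in uninduced DUX4 cultures, and 20.9, 20.9 and 23.4 CPM in induced and 27.9, 30.7 and 28.6 CPM in uninduced luciferase cultures. It fell in both lines, and the difference was −3.30 (SE 0.154, edgeR adjusted p = 2.55e-22). Among the rises were Col11a1, a fibrillar collagen gene, with 3.49 (SE 0.376), and Mmp9, a gelatinase gene, at 57.2 ± 3.02 CPM in induced and 1.01 ± 0.166 CPM in uninduced DUX4 cultures. Mmp9 had a single count in each luciferase group, so its difference is not given.

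Of 41 cell junction and adhesion genes, the difference was higher for 16 and lower for 19 (85.4% called, against 66.0% of all genes tested). By at least 1, 6 were higher and 11 lower, against 9.64% and 8.97% of all genes tested. Vcam1, an adhesion receptor that also serves myoblast fusion (chromosome 3, 116110020 to 116129688), was at 5.31, 5.51 and 5.92 CPM in induced and 35.1, 39.8 and 37 CPM in uninduced DUX4 cultures. It was at 106, 118 and 110.4 CPM in induced and 70.4, 74.3 and 71.7 CPM in uninduced luciferase cultures. It fell in the DUX4 line and rose in the luciferase line, a difference of −3.36 (SE 0.0961, edgeR adjusted p = 6.99e-30). Of the collagen-binding integrins, Itga1 was higher (3.87, SE 0.261) and Itga11 lower (−3.62, SE 0.41).

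Signalling ligands and their modulators differed in both directions. Of 35 Wnt ligands, modulators and targets, the difference was higher for 8 and lower for 18 (74.3% called, against 66.0% of all genes tested), with a median of −0.61. The ligand gene Wnt10b was at 5.17, 4.45 and 5.79 CPM in induced and 46.9, 48.1 and 44.8 CPM in uninduced DUX4 cultures, and at 16.3, 17.3 and 19.3 CPM in induced and 15.7, 15.1 and 15.4 CPM in uninduced luciferase cultures, a difference of −3.38 (SE 0.12, edgeR adjusted p = 1.69e-26). The ligand gene Wnt6 had 5 counts in induced and 137 in uninduced DUX4 cultures, against 13 in induced and 10 in uninduced luciferase cultures. It had enough counts to test only through the uninduced DUX4 libraries. Its difference of −5.03 (SE 0.845) thus describes these levels and is not given as a test. The R-spondin gene Rspo3, which amplifies Wnt signals, was higher (5.24, SE 0.354). Dkk2, a secreted modulator of the Wnt co-receptor, rose in both lines. It was at 55.4, 53.5 and 52.8 CPM in induced and 2.54, 1.69 and 2.47 CPM in uninduced DUX4 cultures, and at 68.5, 72 and 72 CPM in induced and 34.8, 33.2 and 35.2 CPM in uninduced luciferase cultures, a difference of 3.55 (SE 0.119, edgeR adjusted p = 2.18e-27). Induced DUX4 cultures stayed below induced luciferase cultures despite the larger rise.

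Of 22 Notch pathway genes, the difference was higher for 4 and lower for 10, and this 63.6% called was near the 66.0% of all genes tested. Hey1, a transcriptional repressor downstream of Notch, was at 90.7, 86.6 and 89.7 CPM in induced and 5.08, 3.65 and 4.55 CPM in uninduced DUX4 cultures, and at 2.3, 3.43 and 2.09 CPM in induced and 3.63, 3.41 and 4.42 CPM in uninduced luciferase cultures, a difference of 4.88 (SE 0.212, edgeR adjusted p = 2.15e-23). The ligand gene Dll1 was also higher (2.63, SE 0.119), while the receptor gene Notch3 (−1.50, SE 0.0504) and the fringe gene Lfng (−1.49, SE 0.15) were lower. Of 19 genes of the insulin-like growth factor axis, 6 were higher and 8 lower (73.7% called, against 66.0% of all genes tested). Their median was 0.09, or −0.69 over the 17 members with more than 3 counts in every group. The imprinted noncoding RNA gene H19 was at 5.03, 6.24 and 5.11 CPM in induced and 118, 118 and 121 CPM in uninduced DUX4 cultures, and at 2911, 3283 and 3208 CPM in induced and 5087, 5153 and 5239 CPM in uninduced luciferase cultures. Uninduced DUX4 cultures already stood far below the luciferase line, and both lines fell, a difference of −3.72 (SE 0.0845). Grb10, an imprinted adaptor gene that restrains insulin receptor signalling, was higher on few counts (3.05, SE 0.726). Igf2r, the receptor that clears IGF2, was higher (2.94, SE 0.0876) and the binding protein gene Igfbp4 lower (−2.85, SE 0.179).

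Immediate early and AP-1 genes, which respond to growth factors within minutes, had 12 higher and 16 lower differences among 37 (75.7% called, against 66.0% of all genes tested). Of the early growth response genes, Egr3 was described above and Egr2 differed by −3.33 (SE 0.194). The synaptic gene Arc was lower too (−3.60, SE 0.269). Atf3 was the highest member. It was at 21.3, 19.9 and 20.7 CPM in induced and 0.762, 0.586 and 0.618 CPM in uninduced DUX4 cultures, and at 13.4, 9.05 and 11.2 CPM in induced and 4.45, 4.09 and 3.44 CPM in uninduced luciferase cultures. This stress-induced repressor rose in both lines, and the difference was 3.47 (SE 0.27, edgeR adjusted p = 5.41e-15).

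In stress programmes the luciferase line itself responded. Of 45 genes of the integrated stress and unfolded protein responses, 21 rose and 19 fell in the DUX4 line (median 0.16), against 30 and 11 in the luciferase line (median 0.37). The difference was higher for 12 and lower for 24 (80% called, against 66.0% of all genes tested), with a median of −0.20. Ddit3, which encodes the stress transcription factor CHOP (chromosome 10, 127290793 to 127296291), was at 16.9, 15.1 and 14.7 CPM in induced and 18.7, 18 and 18.3 CPM in uninduced DUX4 cultures. It was at 110.1, 79 and 91.4 CPM in induced and 25, 25.8 and 25.7 CPM in uninduced luciferase cultures. Induced luciferase cultures stood above the other 3 groups, and the difference was −2.11 (SE 0.133, edgeR adjusted p = 5.47e-18). Cth, an enzyme of cysteine synthesis, rose in both lines and further in the DUX4 line (2.12, SE 0.173).

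Mitochondrial stress and one-carbon genes showed the same order of lines. Of 25 genes, 8 rose and 14 fell in the DUX4 line (median −0.24), against 16 and 4 in the luciferase line (median 0.39), and the difference was higher for 6 and lower for 17 (92% called, against 66.0%), with a median of −0.55. The proline synthesis gene Pycr1 was at 3.7, 2.99 and 3.23 CPM in induced and 10.9, 9.24 and 9.11 CPM in uninduced DUX4 cultures, and at 42.7, 32.5 and 42 CPM in induced and 26.9, 25.5 and 25.1 CPM in uninduced luciferase cultures. It fell in the DUX4 line and rose in the luciferase line, a difference of −2.17 (SE 0.17, edgeR adjusted p = 6.75e-15). The hormone gene Fgf21, which is secreted in mitochondrial stress, also had a lower difference (−2.47, SE 0.729). It had 8 counts in induced and 19 in uninduced DUX4 cultures, a change not called (edgeR adjusted p = 0.115), and rose by 1.25 in the luciferase line. The protease gene Oma1 was higher (0.70, SE 0.137).

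Of 78 nuclear-encoded respiratory chain genes, 37 fell and 22 rose in the DUX4 line, against 38.5% and 37.8% of all genes tested. In the luciferase line 70 fell and 1 rose, against 26.6% and 21.4% of all genes tested, and each of the 70 falls was smaller than 1. The difference was higher for 40 and lower for 10, with a median of 0.16, and the 64.1% called was near the 66.0% of all genes tested. Ndufa4 was at 509.6, 486 and 484 CPM in induced and 196, 199 and 203 CPM in uninduced DUX4 cultures, and at 111, 124 and 118 CPM in induced and 156, 162 and 155 CPM in uninduced luciferase cultures, a difference of 1.72 (SE 0.049, edgeR adjusted p = 5.61e-30). The complex IV subunit gene Cox7a1 had 50 counts in induced and 17 in uninduced DUX4 cultures, against 9 in induced and 13 in uninduced luciferase cultures. It had enough counts to test only through the induced DUX4 libraries, so its difference describes these levels. That difference (2.07, SE 0.836, edgeR adjusted p = 0.0281) did not pass in the fit of all 18 libraries (edgeR adjusted p = 0.0612). It also did not pass without induced DUX4 replicate 3 (edgeR adjusted p = 0.0838) or uninduced DUX4 replicate 2 (0.0828). The same held without induced luciferase replicate 3 (edgeR adjusted p = 0.0706) or uninduced luciferase replicate 3 (0.306). The complex I subunit gene Ndufb11 was also higher (1.49, SE 0.0562) and Ndufs8 lower (−0.45, SE 0.0722). Of 64 mitochondrial ribosome and translation genes, 17 were higher and 10 lower (42.2% called, against 66.0%), and none by as much as 1. The ribosomal protein genes Mrps25 (0.90, SE 0.0953) and Mrps17 (0.85, SE 0.0864) were higher. The initiation factor gene Mtif3 was the highest (0.93, SE 0.113) and the ribosomal protein gene Mrpl35 the lowest (−0.62, SE 0.14).

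Of 38 heat shock proteins and cochaperones, 13 rose and 18 fell in the DUX4 line, while 28 fell in the luciferase line and the others were not called there. The difference was higher for 21 and lower for 11 (84.2% called, against 66.0% of all genes tested). Hspa4l, a chaperone of the HSP110 family (chromosome 3, 40744500 to 40796103), was at 427, 429.7 and 440.3 CPM in induced and 107, 109 and 105 CPM in uninduced DUX4 cultures. It was at 82.8, 89.3 and 91.5 CPM in induced and 119.7, 117 and 120.3 CPM in uninduced luciferase cultures. It rose in the DUX4 line and fell in the luciferase line, a difference of 2.45 (SE 0.0493, edgeR adjusted p = 3.73e-35). The cochaperone gene Bag2 (2.21, SE 0.0602) and the HSP110 gene Hsph1 (1.81, SE 0.0527) followed, and the steroid receptor cochaperone gene Fkbp5 was lower (−1.02, SE 0.071).

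Among the genes that moved in opposite directions in the 2 lines, Angptl4, an inhibitor of lipoprotein lipase (chromosome 17, 33774900 to 33781575), was at 12.5, 17.2 and 15.2 CPM in induced and 43.9, 47.2 and 44.8 CPM in uninduced DUX4 cultures. It was at 80.3, 70.8 and 70.7 CPM in induced and 19.9, 16.7 and 15.8 CPM in uninduced luciferase cultures. The order of induced and uninduced cultures was reversed between the lines, and the difference was −3.67 (SE 0.106, edgeR adjusted p = 9.05e-30). Enpp2, which encodes autotaxin, the enzyme that makes lysophosphatidic acid, was at 3.56, 3.65 and 3.97 CPM in induced and 6.16, 5.4 and 6.25 CPM in uninduced DUX4 cultures. It was at 333, 314 and 332 CPM in induced and 84.2, 91.5 and 80.4 CPM in uninduced luciferase cultures. Most of its difference of −2.60 (SE 0.15, edgeR adjusted p = 3.16e-19) lay in the luciferase rise of 1.93. The imprinted gene Mest had the opposite pattern, at 2.87, 2.72 and 4.31 CPM in induced and 0.762, 1.11 and 1.004 CPM in uninduced DUX4 cultures, and 3.3, 3.62 and 3.47 CPM in induced and 12, 16.1 and 15.9 CPM in uninduced luciferase cultures (3.86, SE 0.291, edgeR adjusted p = 2.13e-15).

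**Figure D4:**
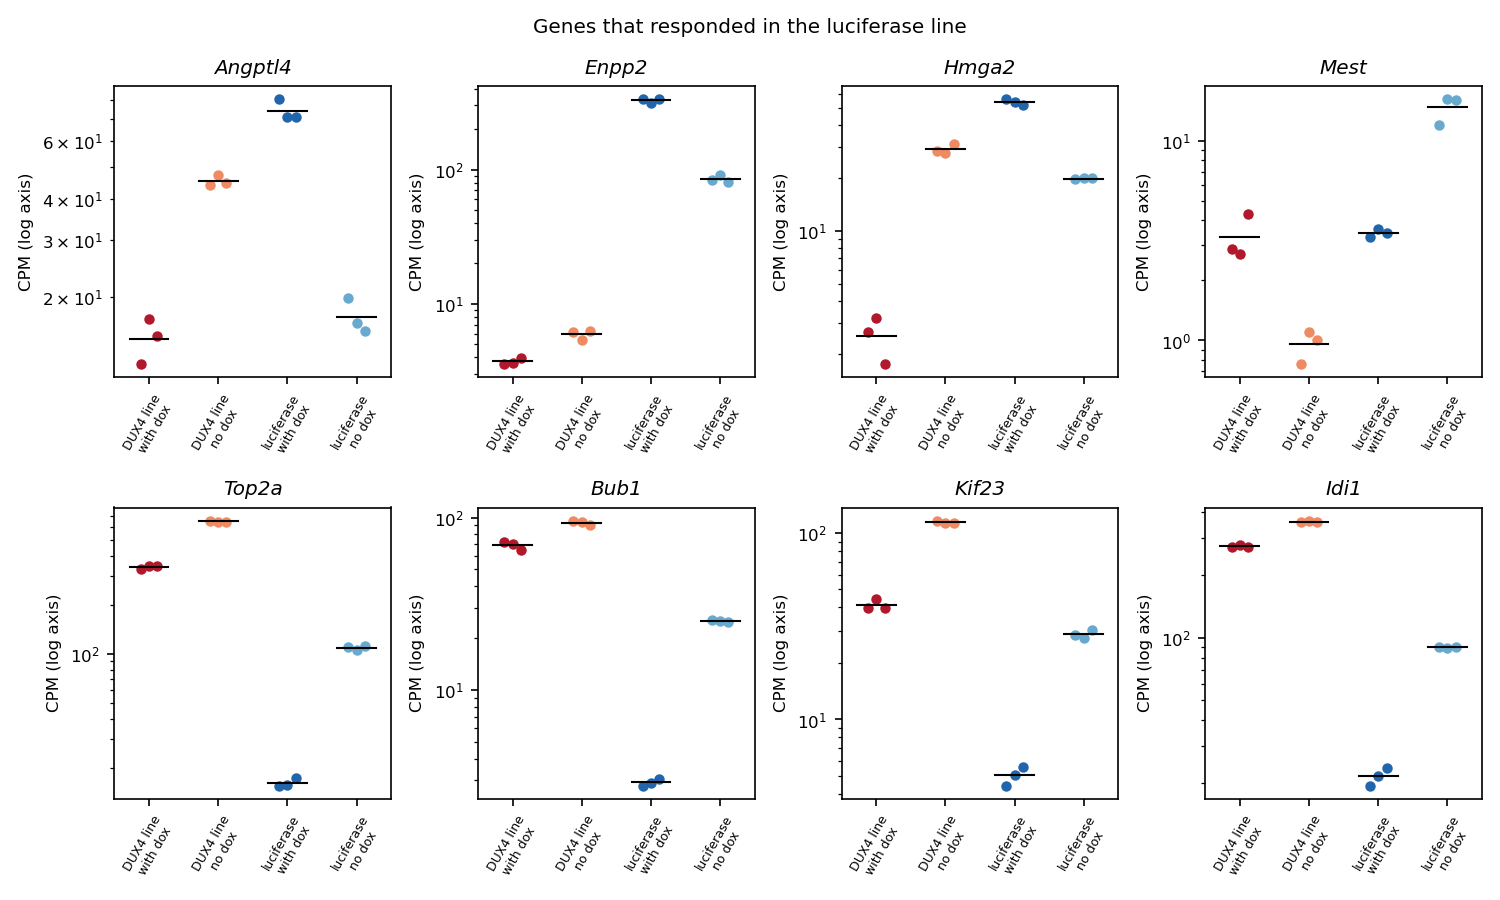
CPM on a log axis of 8 genes with a luciferase response in each library (points) with the group mean (bar), for induced and uninduced human DUX4 cultures and then induced and uninduced luciferase cultures. Angptl4, Enpp2 and Hmga2 rose in the luciferase line and fell in the DUX4 line, Mest did the reverse, and Top2a, Bub1, Kif23 and Idi1 fell in both lines, by more in the luciferase line.

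Muscle genes did not move as a single block. Of 23 acetylcholine receptor and neuromuscular synapse genes, the difference was higher for 11 and lower for 6 (73.9% called, against 66.0% of all genes tested). By at least 1, 7 were higher and 1 lower, against 9.64% and 8.97% of all genes tested. Besides Chrnd and Sntb1, the receptor tyrosine kinase gene Erbb3 was higher (3.07, SE 0.281), and Dok7, an adaptor of the synaptic kinase MuSK, was lower (−2.55, SE 0.513). Of 22 myogenic transcription factors, 11 were higher and 8 lower (86.4% called, against 66.0%). Myod1, the myoblast determination gene (chromosome 7, 46376474 to 46379092), was at 4.47, 3.92 and 2.69 CPM in induced and 26.9, 26.2 and 27.1 CPM in uninduced DUX4 cultures. It was at 146, 155 and 148 CPM in induced and 202, 199 and 195 CPM in uninduced luciferase cultures. Both lines fell, and the difference was −2.45 (SE 0.11, edgeR adjusted p = 5.29e-23). Eya1, a transcriptional cofactor of muscle progenitors, was at 241, 236 and 235 CPM in induced and 35.9, 37.7 and 36.2 CPM in uninduced DUX4 cultures, and at 51.9, 51.3 and 53.1 CPM in induced and 39.97, 46.5 and 43.3 CPM in uninduced luciferase cultures. It rose in both lines, and the difference was 2.43 (SE 0.0653, edgeR adjusted p = 7.95e-31). Twist2, a repressor of myogenesis, was lower (−2.01, SE 0.182). The value for the muscle transcription factor gene Mef2c (3.39, SE 1.49) rests on 4 counts in induced and 0 in uninduced DUX4 cultures, at least 1.33-fold higher, while the gene averaged 34.9 ± 2.28 CPM in induced and 30.3 ± 1.35 CPM in uninduced luciferase cultures (SD, n = 3 each).

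Of 55 sarcomere and Z-disc genes, 13 rose and 16 fell in the DUX4 line, 11 in each direction by at least 1, with a median of −0.45. In the luciferase line 43 fell, 11 of them by at least 1, and 2 rose, with a median of −0.72. Of all genes tested, 10.8% rose and 11.1% fell by at least 1 in the DUX4 line, and 2.97% fell by at least 1 in the luciferase line. The difference was higher for 17 and lower for 8, which is 45.5% called against 66.0% of all genes tested. Their summed level was 3464 ± 37.7 CPM in induced and 3467 ± 50.1 CPM in uninduced DUX4 cultures, against 5349 ± 196 CPM in induced and 8299 ± 85.8 CPM in uninduced luciferase cultures (SD, n = 3 each). Nrap, Pdlim3 and Actn2 were described above. The Z-disc gene Myoz3 had 83 counts in induced and 6 in uninduced DUX4 cultures, against 6 in induced and 10 in uninduced luciferase cultures. It had enough counts to test only through the induced DUX4 libraries. Its difference of 4.43 (SE 0.989) thus describes these levels and is not given as a test. The troponin gene Tnni3 had 1 count in induced and 13 in uninduced DUX4 cultures, a ratio of uninduced over induced of 13.0 with a 95% exact interval of 1.96 to 555. Of 24 excitation-contraction and calcium handling genes, 13 were higher and 5 lower (75% called, against 66.0% of all genes tested). The calcium pump gene Atp2a1 (2.03, SE 0.186), the store sensor gene Stim1 (1.93, SE 0.0788) and the calcium-binding protein gene Hrc (1.88, SE 0.491) were higher, and Stac3, which couples the channel to the release receptor, was lower (−2.32, SE 0.519). Atp2a1 and Hrc still stayed far below the luciferase line. Atp2a1 averaged 3.79 CPM in induced and 1.37 CPM in uninduced DUX4 cultures, against 84.3 and 124 CPM in luciferase cultures. Hrc averaged 0.723 and 0.313 CPM, against 14.1 and 23.1 CPM.

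Of 41 glycolysis and hypoxia-response genes, the difference was higher for 20 and lower for 13 (80.5% called, against 66.0% of all genes tested). Pfkfb3, which makes the activator of phosphofructokinase, was at 77.6, 84 and 81 CPM in induced and 8.26, 7.68 and 9.03 CPM in uninduced DUX4 cultures, and at 17.7, 18 and 19.2 CPM in induced and 20.04, 18.8 and 18.7 CPM in uninduced luciferase cultures. The luciferase groups overlapped, and the difference was 3.35 (SE 0.102, edgeR adjusted p = 6e-29). The list's other top members were lower. Pdk4 was described above, and the glucose transporter genes Slc2a3 and Slc2a4 each had 1 count in induced and 10 in uninduced DUX4 cultures, a ratio of uninduced over induced of 10.0 with a 95% exact interval of 1.43 to 436. Of 39 interferon-stimulated and antigen presentation genes, 18 were higher and 7 lower, and this 64.1% called was near the 66.0% of all genes tested. The antiviral gene Oas1a, which has close copies, had 113 counts in induced and 1 in uninduced DUX4 cultures, against 0 and 1 in induced and uninduced luciferase cultures. The antiviral genes Ifit3 (3.70, SE 0.323) and Oasl2 (2.95, SE 0.268) were higher, and the membrane protein gene Ifitm1 (−3.13, SE 0.233) and the peptide transporter gene Tap1 (−2.01, SE 0.538) were lower.

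Of 40 2-cell-stage genes in the table, 17 were tested, and the difference was higher for 6 and lower for 1, which is 41.2% called against 66.0% of all genes. Of 30 counterparts of human DUX4 targets, 17 were tested, and 9 were higher and 2 lower, and this 64.7% called was near the 66.0% of all genes. Because a gene silent in 3 groups could pass the filter through the induced DUX4 libraries, these counts do not describe the whole lists. Tmem92 was at 109, 105 and 111 CPM in induced and 0.0635, 0.195 and 0.154 CPM in uninduced DUX4 cultures, and at 0.124, 0.129 and 0.12 CPM in induced and 0.234, 0.124 and 0.281 CPM in uninduced luciferase cultures. Induced DUX4 cultures stood far above the other 3 groups, and the difference was 10.28 (SE 0.943). Tmem92 passed the filter through the induced DUX4 libraries alone. Its luciferase response rests on 6 counts in induced and 10 in uninduced cultures, so its difference describes these levels and is not given as a test. Pramef25, a PRAME family gene with near-identical copies that make its share of reads uncertain, was at 80.8, 78.7 and 73.8 CPM in induced and 0.508, 0.456 and 0.618 CPM in uninduced DUX4 cultures, and at 0.622, 0.517 and 0.598 CPM in induced and 0.352, 0.681 and 0.561 CPM in uninduced luciferase cultures, a difference of 7.06 (SE 0.534). Pramef25 likewise passed the filter through the induced DUX4 libraries alone. Its luciferase response rests on 28 counts in induced and 25 in uninduced cultures, so its difference also describes levels and is not given as a test. BC080695 (6.15, SE 0.504) and the deubiquitinase gene Usp17la (2.17, SE 0.351), which also have close copies, were higher. The chemokine receptor gene Cxcr4 (−3.22, SE 0.202) and the translation factor gene Eif1a (−1.05, SE 0.0517) were lower. The pluripotency gene Nanog was lower on few counts (−2.06, SE 0.665). It had 8 counts in induced and 49 in uninduced DUX4 cultures, against 22 in induced and 31 in uninduced luciferase cultures.

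The difference could not be estimated for genes that a line did not express. Of 73 tested genes with no count in the 6 luciferase-line libraries, 61 rose and 8 fell in the DUX4 line. Of all genes tested, 37.8% rose and 38.5% fell there. Genes without luciferase-line counts could pass the filter only through DUX4-line libraries. The filter thus shapes these counts, and no conclusion is drawn from them. In the difference, edgeR called 0 of the 73 (0 at an unadjusted p under 0.05), while DESeq2, which fits such zeros differently, called 33. With the 3 induced DUX4 libraries given first, then the 3 uninduced summed, the genes with most induced counts, named after their values were seen, were the vasoactive peptide gene Uts2 with 1124, 1178 and 1121 counts against 8, the ammonium transporter gene Rhag with 395, 386 and 402 against 4, the metalloreductase gene Steap4 with 342, 405 and 383 against 19, and the surrogate light chain gene Igll1 with 361, 364 and 358 against 74. For these genes the luciferase line gives no response to subtract. Of 82 genes with no count in the DUX4 line, edgeR and DESeq2 called 0 in the difference (0 at an unadjusted edgeR p under 0.05).

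**Figure D5:**
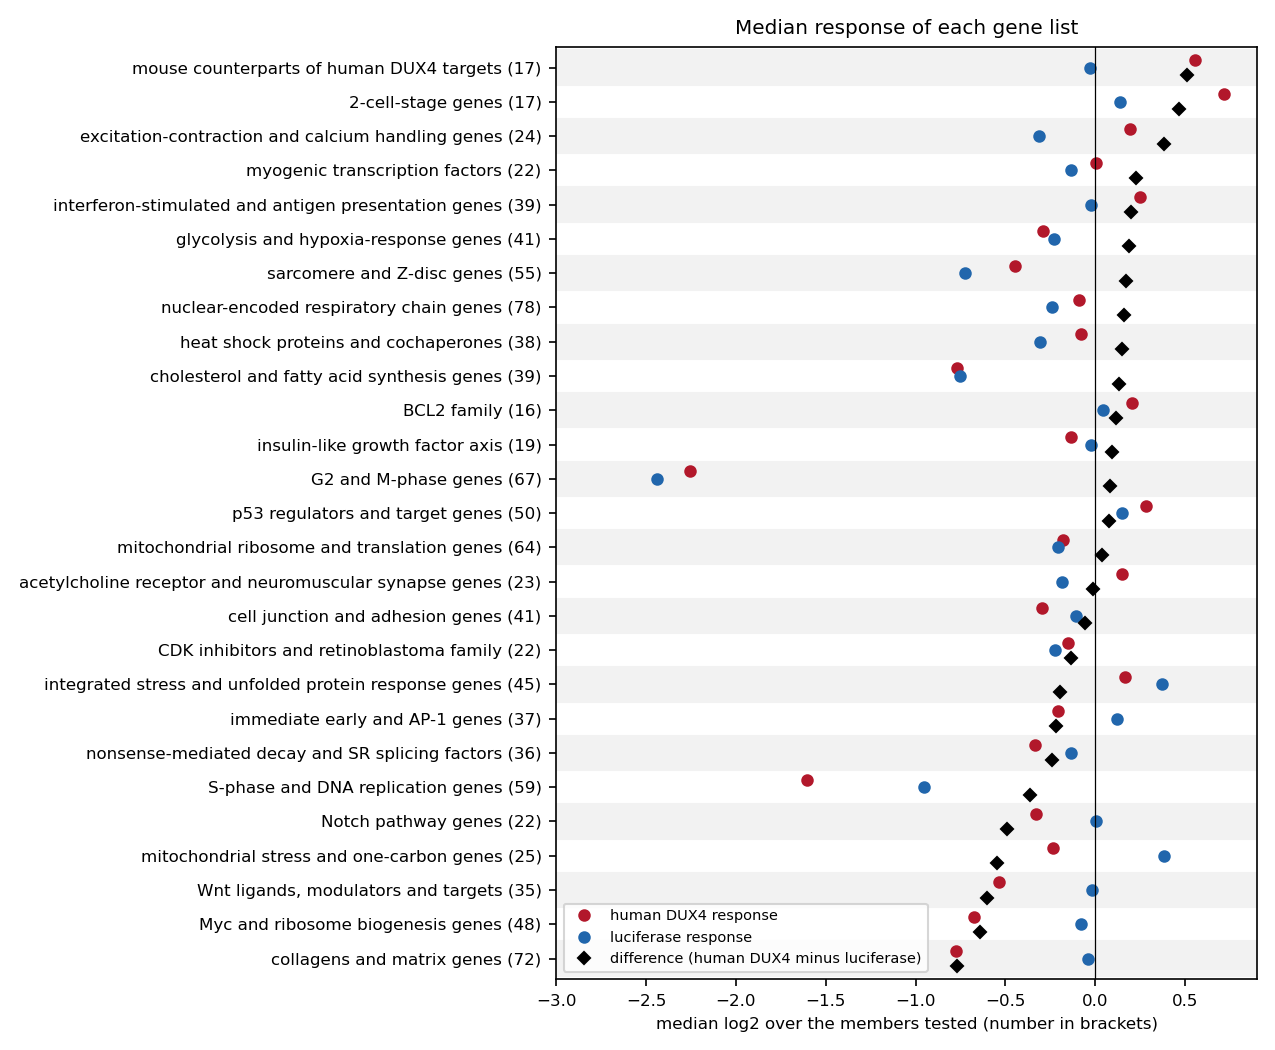
Median log2 change of 27 gene lists, cell type markers left out, over their tested members (number in brackets) in the human DUX4 line (red), in the luciferase line (blue) and for the difference (black diamonds), sorted by the difference. G2 and M-phase genes have medians of −2.25 and −2.44 in the 2 lines and a difference near 0, while collagens and matrix genes, at −0.77, have the lowest median difference of the lists plotted.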

How the data were processed

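Per the labels' protocols, polyadenylated RNA was sequenced from C2C12 cultures with a TruSeq RNA kit, and libraries were pooled over flow cell lanes, with each library's pool not given in the sources used here. The authors deposited raw read counts by gene as whole numbers; the submitters' processing notes name CASAVA, TopHat2 2.0.12, Bowtie2 2.2.3 and the build mm10. For the counting step and its strand setting, nothing is given in the sources used here. Reads of overlapping or near-identical genes cannot be assigned with certainty. Positions and promoters are from RefSeq GRCm38.p6, in which 99.8% of gene IDs matched, and 27 symbols turned into dates were restored from their IDs.

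Genes were kept by filterByExpr, scaled by TMM and tested by the quasi-likelihood method of edgeR 4.0.16 (R 4.3.3), two-sided, with 1 mean per group over 12 libraries and Benjamini-Hochberg adjustment over all genes tested. Standard errors of log2 values were derived from the F statistic. CPM are means ± SD over 3 libraries. P-values measure the spread between cultures of 1 clone. In 35 gene lists, counts of called members and medians are given without a set test. Named genes were the markers, the 10 highest and 10 lowest differences at 1 CPM or more in both lines, the 4 genes with the largest luciferase change among those moving oppositely or alike, and the 4 called members of each list with the largest difference; 1 gene so chosen is not reported here. The comparison, markers and lists were chosen with earlier results of these data known. Folds against a group with no count use a floor of 3 counts per group, and with 1 to 3 counts a 95% exact (Clopper-Pearson) interval, both covering counting error only. Alternatives were other scalings and filters, DESeq2 1.42.0, all 18 libraries, a replicate block and leaving out each library. The fit was checked on simulated counts.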

Additional observations from a re-analysis of the deposited data

Results flagged for a closer look

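Each result here was singled out because the responses of the human DUX4 and luciferase lines differed by a test of the difference itself, the edgeR quasi-likelihood test of the interaction. This held for 4421 genes with a higher and 4119 genes with a lower response in the DUX4 line. Nrap (8.15), Pdlim3 (4.42), Chrnd (3.57), Gja1 (−3.16) and Spp1 (−4.97) were chosen as markers because of these log2 differences. Among genes that moved in opposite directions in the 2 lines, Mest (3.86) was higher and Enpp2 (−2.60) and Angptl4 (−3.67) were lower. The part of the clone and of the levels before induction in these differences was not tested.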

How the results depend on the processing

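Genes named by the rules above were followed under 7 other settings and 12 fits without 1 library each. None changed direction where either fit called its difference. A change of sign between 2 uncalled values was not counted. Genes named outside these rules, among them Uts2, Rhag, Steap4 and Igll1, were not followed. Each count of called genes stayed within 1.5 times its main value. Genes called higher numbered 4105 to 4400 and lower 3975 to 4239 without 1 library each, strongly higher 441 to 474 and strongly lower 356 to 386, with 9599 to 9978 genes called in the DUX4 response and 5584 to 6343 in the luciferase response. The luciferase calls fell further in the fit of all 18 libraries (4228) and by DESeq2 (5200), against 6214 in the main fit. The DUX4 calls were then 9191 and 9428, against 9880. Of the 8540 calls, 86.9% were shared with the fit of all 18 libraries and 99.8% with median-of-ratios scaling, the lowest and highest shares of the 19 alternatives, and none had the opposite sign. Of 2466 values of named genes, 2447 kept their side of the threshold, 18 lost and 1 gained a call. Of 664 list medians, 62 moved beyond the spread between libraries. The median of the acetylcholine receptor and neuromuscular synapse list was −0.01 over 23 genes, but 0.30 in the fit of all 18 libraries and 0.275 to 0.324 in 10 of the 12 fits without 1 library, in all of which 24 were tested. Library size alone moved the median of all genes to −0.04, with 4006 higher and 4571 lower genes. Replicate numbers did not pair the samples: deviations of same-numbered libraries correlated at −0.0351 to 0.0372 within lines, and with the replicate block 4375 genes were higher and 4090 lower. Depth limits the genes with few counts in a line, for which the luciferase response, and so the difference, is poorly determined or undefined.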
